A study of Ovis aries with 91 samples.

Results

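Cardiomyocytes isolated from the atrial appendages of sheep in chronic atrial fibrillation were compared with those of sheep labelled as being in transition. Of the 18 columns of the cardiomyocyte table, 12 belong to these states: the chronic sheep D16, D19 and D20 and the transition sheep D23, D24 and D27, each with a left and a right appendage. They stand for 24 of the 91 sequencing runs that the labels list, since each column merges the technical replicates of a sheep and appendage. The state, appendage and sheep in the labels and column names chose the columns, and no measured value did. Per the labels, sheep of both states carried a tachypacing device in the right atrium, by which atrial fibrillation was brought about, and none of the labels gives the duration of pacing or of fibrillation, the age, the sex or the breed. The 3 control sheep (S3 and S4, labelled sham, and C1, whose condition label is control while its table columns and some tissue titles say sham) enter below for the estimate of the spread and as a level to look back to.

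Atrial fibrillation is a fast and disordered atrial rhythm that tends to become more persistent the longer it lasts. The atrial muscle cell changes with it, in its ion channels, calcium handling, contractile apparatus and metabolism, and these changes are known together as remodelling. Left and right atrial muscle differ in gene expression from development onwards, so each appendage was taken on its own and then averaged per sheep. The transition label is read here as an earlier stage of fibrillation than the chronic label, though no label gives a duration. The comparison asks what separates muscle cells of these stages, in different animals.

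The deposited table gives log2 CPM (counts scaled to a common library size) per gene under Ensembl sheep gene IDs, and 0 of the 13262 IDs matched a gene symbol in the reference used here. Genes therefore appear by ID, with no name, role or position, and the cell type label could not be set against the markers of cardiomyocytes, fibroblasts, endothelial cells or leukocytes. Recovered reads per library were, in units of 1e+06, 7.16 to 8.60 in chronic left, 7.82 to 10.7 in transition left, 5.31 to 6.96 in chronic right and 6.76 to 11.1 in transition right libraries. The 10 most abundant genes held 17.5% to 23.5% of the reads of a chronic library and 17.8% to 23.1% of those of a transition library. Chronic libraries tended to be shallower than transition libraries, though the ranges overlapped on both sides, and the part of depth in the results was not tested. The p-values of the sheep mean rest on the spread between sheep, 3 per state. Those of the left, the right and their difference use a spread pooled over both appendages and allow for the correlation within a sheep. The left minus right difference is a contrast within sheep.

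Whole appendage tissue was used below as a second readout, and 1 of its libraries stood apart. In cardiomyocytes 14 of 13262 genes were found in some sheep and missing in others, with at least 30 reads in both appendages or at most 3 in both, in each of the 9 sheep. At these genes 13 of the 14 tissue libraries of sheep that also gave cardiomyocytes went against their own sheep's cardiomyocytes 0 or 1 time, and the left tissue library labelled D27 did so at 4 genes. Tissue values are therefore given with and without that library. The cause was not tested.

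Between chronic and transition sheep 1 gene, ENSOARG00000002796, passed the test in the left appendage, in the right appendage and in the mean of both, and it was lower in chronic sheep each time. That was 0.00814% of the 12279 genes tested in each comparison (limma, Benjamini-Hochberg adjusted p under 0.05). The gene lies below the median level and so outside the rule by which genes were named, and it is described because it was the single call. In left cardiomyocytes it had 1, 0 and 0 reads in chronic sheep D16, D19 and D20, and 252, 98 and 148 reads in transition sheep D23, D24 and D27. In right cardiomyocytes it had 0 reads in each of the 3 chronic sheep, and 381, 82 and 153 reads in the same transition sheep. The groups were far apart in both appendages, with the gene practically missing in chronic sheep. Control sheep, at 90 to 301 reads per library, resembled the transition sheep.

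The mean of both appendages of ENSOARG00000002796 fell by 7.73 on the log2 scale with a standard error of 0.44 (limma, adjusted p = 0.000132). The left change was −7.43 ± 0.52 (SE, limma, adjusted p = 7.93e-07) and the right change −8.04 ± 0.52 (SE, limma, adjusted p = 2.26e-07). Such fitted changes depend on the 0.5 reads that the authors' log values add to each count. From the summed reads per scaled library size, the gene was 398-fold lower in chronic than in transition sheep on the left, with a counting interval of 71.1 to 15753 at 95% confidence. On the right, with 0 reads in chronic sheep, expression was at least 156-fold lower in chronic sheep, when 3 counts over the group are taken as the floor. These intervals and floors cover counting error only.

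In whole tissue the states were not apart at ENSOARG00000002796. Chronic sheep D16 had 0 reads in both appendages and D19 had 2 on the left and 0 on the right. Chronic sheep D15, which gave no cardiomyocytes, had 285 reads on the left and 268 on the right. The 3 transition sheep of the tissue table, D24, D27 and D30, had 113 to 312 reads. A chronic sheep outside the cardiomyocyte table thus carried the gene at the level of transition sheep, and in tissue the groups overlapped. The tissue change averaged over both appendages was −4.71 ± 1.47 (SE, limma, adjusted p = 0.227), and −4.66 (limma, adjusted p = 0.301) without the left D27 library.

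The mirror image was ENSOARG00000008077, also singled out after its values were seen. It had 1235, 990 and 550 reads in left cardiomyocytes of chronic sheep D16, D19 and D20, and 2, 0 and 0 reads in those of transition sheep D23, D24 and D27. On the right it had 1056, 1045 and 572 reads in the chronic sheep and 0 in each transition sheep. Chronic and transition sheep did not overlap, and the control sheep were themselves split, with 629 left and 541 right reads in S4 and at most 2 in S3 and C1. The change in the sheep mean was 10.71 ± 2.15 (SE, limma, adjusted p = 0.458) and did not pass, where the spread was estimated over all 9 sheep. With chronic and transition columns only it was called, at an adjusted p of 3.84e-05 in limma. By counts it was 1736-fold higher in chronic than in transition left cardiomyocytes, with an interval of 480 to 14341, and at least 1171-fold higher on the right.

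In whole tissue ENSOARG00000008077 was found in all 3 chronic sheep, with 402 to 1095 reads in D15, D16 and D19. Transition sheep D24 and D27 had 0 reads, while transition sheep D30 had 337 on the left and 410 on the right. The states overlapped again once a sheep outside the cardiomyocyte table was counted. Of the 14 genes found or missing by sheep, 2 had chronic and transition cardiomyocytes fully apart, and the other 12 divided the sheep in other ways.

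**Figure D1:**
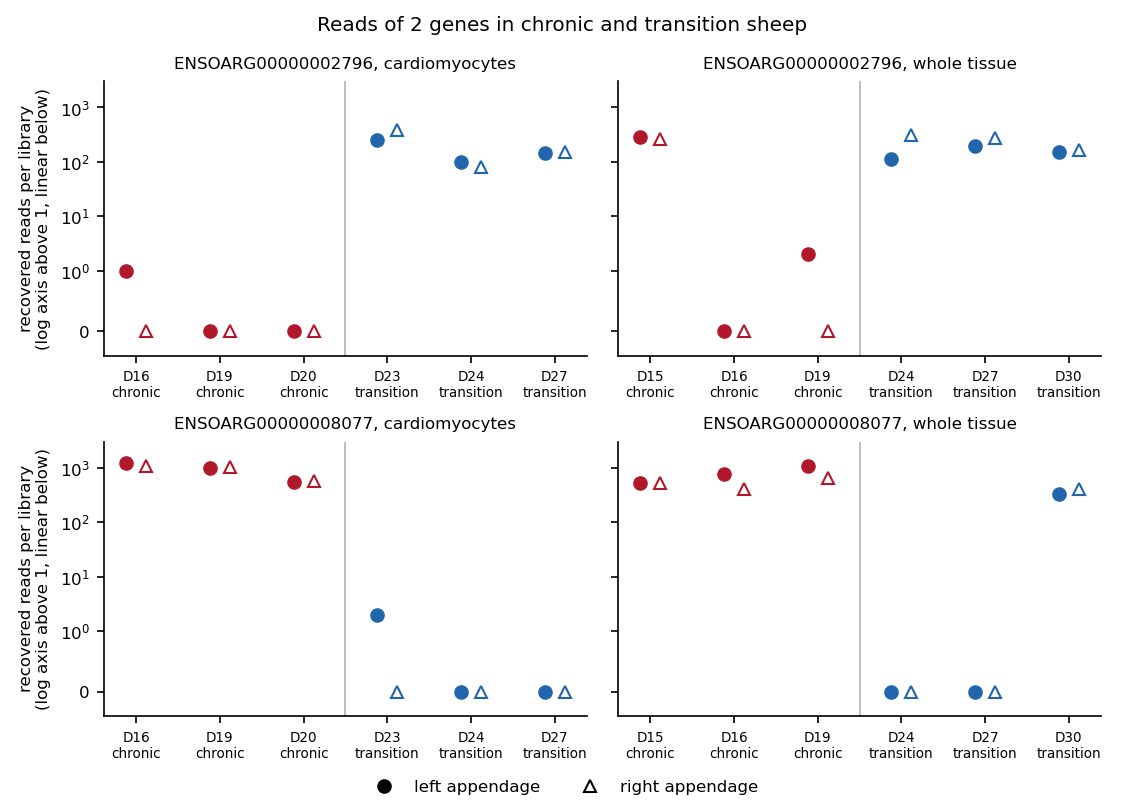
Recovered reads per library of the gene missing in chronic cardiomyocytes (top) and the gene missing in transition cardiomyocytes (bottom), in isolated cardiomyocytes (left panels) and whole tissue (right panels), on an axis that is logarithmic above 1 read. Filled circles are left and open triangles right appendages. In tissue chronic sheep D15, at 285 and 268 reads of the upper gene, and transition sheep D30, at 337 and 410 reads of the lower gene, break the separation seen in cardiomyocytes.

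No other gene passed, and the genes named next are those with the smallest unadjusted p in each direction, above the median level and with the states not overlapping. Their values did not pass the adjusted threshold. A lack of overlap in the comparison a gene is named for was a condition of the choice and is no result. They fall into a group that was lower in chronic than in transition and control sheep, a group that was higher in chronic than in both, and a group in which transition sheep lay below both other states.

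ENSOARG00000009978 was the lowest-p gene of the first kind, for the left appendage and for the sheep mean. Its left level was 4.25, 3.70 and 4.22 log2 CPM in chronic sheep D16, D19 and D20, and 5.38, 5.76 and 5.84 log2 CPM in transition sheep D23, D24 and D27. Its right level was 3.92, 3.995 and 4.54 log2 CPM in the chronic sheep and 4.59, 5.88 and 5.72 log2 CPM in the transition sheep. The groups did not overlap on either side, though right D20 and right D23 were only 0.05 apart. The sheep mean averaged 4.10 ± 0.27 in chronic and 5.53 ± 0.47 in transition sheep (SD, n = 3 each), with controls at 5.33 ± 0.21, and the change was −1.42 ± 0.23 (SE, limma, adjusted p = 0.418). The left change alone was −1.61 ± 0.29 (SE, limma, adjusted p = 0.241).

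ENSOARG00000006715, named for the right appendage and the sheep mean, had right levels of 3.06, 3.05 and 3.05 log2 CPM in chronic sheep and 3.78, 4.45 and 4.33 log2 CPM in transition sheep. Its left levels were 3.47, 3.01 and 3.52 log2 CPM in chronic and 4.12, 4.56 and 4.30 log2 CPM in transition sheep. The chronic right libraries were almost identical and lay below every transition library. Its change in the sheep mean was −1.06 ± 0.18 (SE, limma, adjusted p = 0.418), and controls averaged 4.30 ± 0.25 (SD, n = 3), close to the transition mean of 4.26 ± 0.28.

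ENSOARG00000010539 had left levels of 2.88, 2.84 and 3.54 log2 CPM in chronic sheep and 5.17, 4.87 and 4.65 log2 CPM in transition sheep, a change of −1.81 ± 0.35 (SE, limma, adjusted p = 0.249). On the right its chronic levels of 2.92 to 4.39 log2 CPM overlapped the transition levels of 3.84 to 5.02 log2 CPM. The difference between its left and right changes was −1.08 ± 0.36 (SE, limma, adjusted p = 0.663), so it was not shown to differ by side. ENSOARG00000019145, named for the right, had right levels of 3.23, 3.88 and 3.80 log2 CPM in chronic and 4.41, 4.91 and 5.09 log2 CPM in transition sheep, a change of −1.17 ± 0.24 (SE, limma, adjusted p = 0.350).

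In the opposite direction ENSOARG00000009668 came nearest to the threshold. Its right levels were 5.54, 5.89 and 4.83 log2 CPM in chronic sheep D16, D19 and D20 and 4.26, 3.65 and 3.71 log2 CPM in transition sheep D23, D24 and D27. Its left levels were 4.70, 5.20 and 4.52 log2 CPM in chronic and 3.70, 3.72 and 3.40 log2 CPM in transition sheep. Every chronic library lay above every transition library of either side. Its right change was 1.55 ± 0.26 (SE, limma, adjusted p = 0.0913) and its sheep-mean change 1.37 ± 0.23 (SE, limma, adjusted p = 0.418). Averaging both contrasts in the model with the sheep as a block called it (limma, adjusted p = 0.0444), along with ENSOARG00000002796 and ENSOARG00000008077, 0.0244% of all genes. Controls, at 3.57 ± 0.30 (SD, n = 3), lay beside the transition mean of 3.74 ± 0.22 and below the chronic mean of 5.11 ± 0.43. ENSOARG00000007348 was also above both, at 5.30 ± 0.19 in chronic and 4.64 ± 0.12 in transition sheep (SD, n = 3 each), with controls at 4.21 ± 0.08 and a chronic minus transition change of 0.66 ± 0.13 (SE, limma, adjusted p = 0.458).

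In the last group the transition sheep were the ones apart in cardiomyocytes. ENSOARG00000017477 had left levels of 4.996, 5.10 and 4.84 log2 CPM in chronic and 4.01, 4.33 and 4.12 log2 CPM in transition sheep. Its sheep mean was 5.16 ± 0.06 in chronic and 4.39 ± 0.18 in transition sheep (SD, n = 3 each), and the control mean of 5.05 ± 0.27 lay near the chronic one. The left change was 0.82 ± 0.17 (SE, limma, adjusted p = 0.249).

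ENSOARG00000017639 had left levels of 4.32, 4.68 and 4.20 log2 CPM in chronic and 3.28, 3.30 and 2.10 log2 CPM in transition sheep, a change of 1.503 ± 0.316 (SE, limma, adjusted p = 0.249). ENSOARG00000013856 had right levels of 6.85, 6.11 and 5.71 log2 CPM in chronic and 5.23, 4.63 and 3.56 log2 CPM in transition sheep, a change of 1.75 ± 0.41 (SE, limma, adjusted p = 0.441). The states did not overlap on the side named, as the naming required. Both genes were lowest in D27, and the control means of 4.90 ± 0.43 and 6.30 ± 0.29 (SD, n = 3) were not below the chronic means of 4.82 ± 0.26 and 5.83 ± 0.44.

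**Figure D2:**
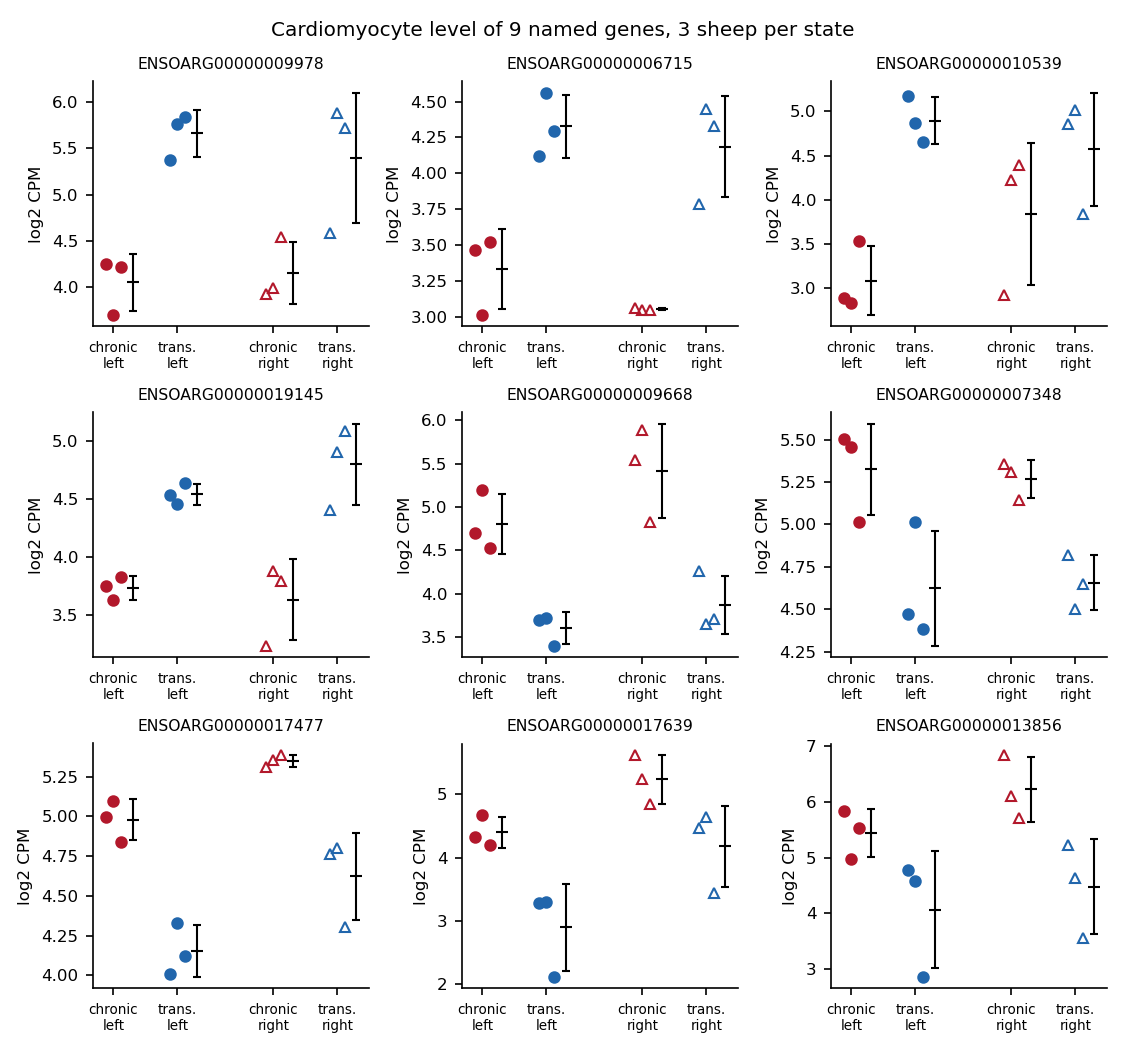
Level in log2 CPM of 9 named genes in isolated cardiomyocytes, with chronic sheep (red) left of transition sheep (blue) for the left appendage (filled circles) and the right appendage (open triangles). Each point is a sheep and the black bars give the mean and SD of 3 sheep. Right ENSOARG00000006715 lies at 3.05 to 3.06 in all 3 chronic sheep, and right ENSOARG00000009978 of chronic D20 (4.54) almost meets transition D23 (4.59).

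The whole tissue table gave a partly separate view of these genes, because it holds a chronic sheep, D15, and a transition sheep, D30, that gave no cardiomyocytes. The other 4 sheep of these states are the same animals, so the tissue test is not independent. Averaged over both appendages, the tissue test called 14 of 12333 genes (0.114%), and 0 without the left D27 library (limma, adjusted p under 0.05). With all libraries ENSOARG00000006715 changed in tissue by −1.62 ± 0.24 (SE, limma, adjusted p = 0.0382), ENSOARG00000009978 by −1.38 ± 0.22 (adjusted p = 0.0477), ENSOARG00000010539 by −1.49 ± 0.26 (adjusted p = 0.0477) and ENSOARG00000017639 by 1.96 ± 0.36 (adjusted p = 0.0483). Without left D27 their changes were −1.66, −1.43, −1.44 and 1.97, at adjusted p-values of 0.0776, 0.0776, 0.0978 and 0.0978 in limma.

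The tissue test that called these genes includes sheep D15 and D30, so the difference between those sheep is no separate support for the genes called. The D15 minus D30 difference, averaged over both appendages, was −2.39 for ENSOARG00000006715, −1.78 for ENSOARG00000009978 and −1.60 for ENSOARG00000010539. It was 2.38 for ENSOARG00000017639 and 1.16 for ENSOARG00000017477. With 1 sheep a side these differences have no replicate check. All these had the sign of the cardiomyocyte change, as had ENSOARG00000019145 at −0.48, with −0.83 on the left and −0.14 on the right. The D15 minus D30 difference was 0.03 for ENSOARG00000009668, −0.20 for ENSOARG00000007348 and 0.10 for ENSOARG00000013856, and the tissue test of ENSOARG00000009668 gave 0.04 ± 0.13 (SE, limma, adjusted p = 0.938). The left tissue level of ENSOARG00000009668 was 3.74 to 4.09 log2 CPM in chronic and 3.70 to 3.998 log2 CPM in transition sheep, and the states overlapped.

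Across all genes, 913 had an unadjusted p under 0.05 in the cardiomyocyte sheep mean and were tested in both tables. In the D15 minus D30 tissue difference 657 of them, or 72.0%, had the sign of the cardiomyocyte change, against 57.9% of all 11796 genes. The share was 72.5% on the left against 58.5% of all genes, and 66.8% on the right against 54.4%. The 403 genes higher in chronic cardiomyocytes had a median D15 minus D30 difference of 0.28, and the 510 lower genes one of −0.31, at median cardiomyocyte changes of 0.77 and −0.46. Genes are not independent replicates and the tissue difference rests on 2 animals, so these shares are a description.

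At the unadjusted level, 865 genes (7.04%) had a p under 0.05 on the left, 1098 (8.94%) on the right and 955 (7.78%) in the sheep mean. With 3 sheep against 3, a gene without a state difference would lie fully apart with a probability of 0.1 over both directions, or 0.05 in each. In the sheep mean 529 genes were higher in every chronic than in every transition sheep (4.31%) and 922 were lower (7.51%). Large differences ran the other way, and the split by direction was not tested. Of the 257 genes with a sheep-mean change beyond 1 on the log2 scale, 189 were higher and 68 were lower in chronic sheep. Over all genes the median size of the change was 0.16 and its median standard error 0.19, and 7116 genes (58.0%) had a change smaller than its own standard error.

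The appendages shared their direction at 8113 of 12279 genes (66.1%). Of the 12279 genes, 278 had an unadjusted p under 0.05 on both sides. They were 32.1% of the left and 25.3% of the right ones, and 276 of them had the same sign. Both sides come from the same sheep. Left levels of the states did not overlap at 1485 genes (12.1%) and right levels at 1266 (10.3%). In the same direction on both sides they did not overlap at 227 of 12279 genes, of which 67 were higher and 160 lower in chronic sheep. The shares per side are to be read against the probability of 0.1 that holds without a state difference. For both sides together that probability does not hold, and the 227 genes and their split by direction are a description.

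**Figure D3:**
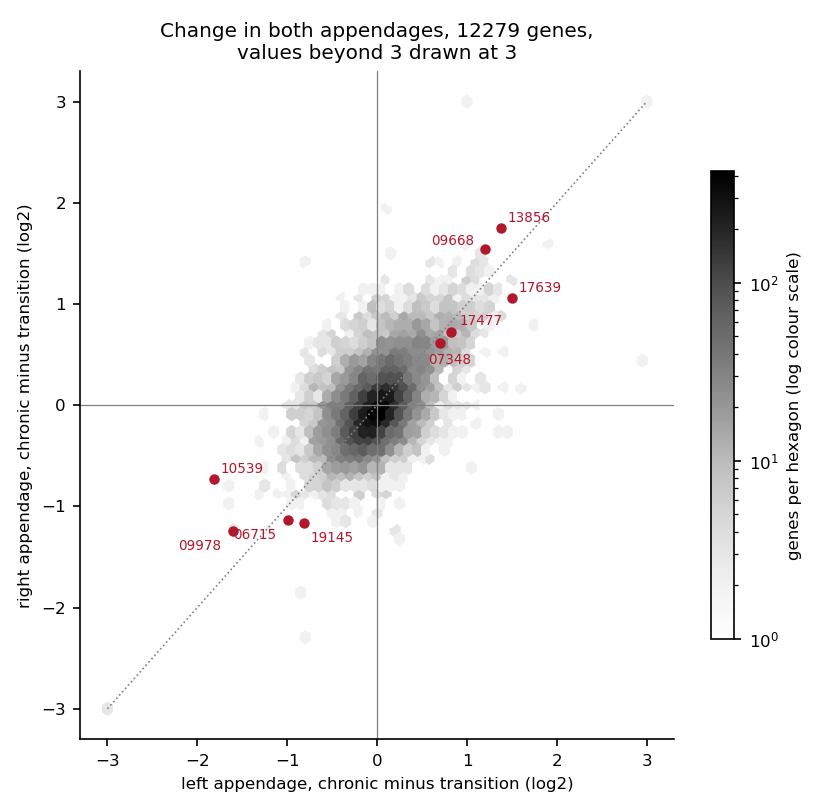
Chronic minus transition change of 12279 genes in the left appendage (horizontal) and the right appendage (vertical), both on the log2 scale, with hexagons shaded by the number of genes and 9 named genes in red with the last digits of their IDs. Values beyond 3 are drawn at 3 and the dotted line marks equal changes. The 9 genes drawn lie in the quadrants of equal sign, which their choice by a low p on a side or in the mean of both favours. Genes named for a left minus right difference are not drawn and had opposite signs on the left and the right. Of all genes 66.1% had equal signs.

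No gene passed for a difference between the left and the right change in limma with Benjamini-Hochberg adjustment (0% of 12279 genes), and 0 passed with voom weights. At an unadjusted p under 0.05 there were 857 genes (6.98%), and 762 with voom weights. The gene with the lowest p, ENSOARG00000009437, had a left minus right level of 0.77, 0.89 and 0.85 in chronic sheep D16, D19 and D20 and of 0.04, 0.03 and −0.41 in transition sheep D23, D24 and D27. The chronic sheep agreed closely and lay above the transition sheep, as the naming required, with a difference of the changes of 0.95 ± 0.18 (SE, limma, adjusted p = 0.560). ENSOARG00000018640 gave left minus right levels of 0.72, 1.67 and 0.57 in chronic and 0.02, −0.14 and −0.54 in transition sheep, a difference of 1.21 ± 0.26 (SE, limma, adjusted p = 0.560). In the other direction ENSOARG00000012978 gave −0.68 ± 0.18 and ENSOARG00000013057 −0.70 ± 0.19 (SE, limma, adjusted p = 0.644 for both). Left minus right levels of ENSOARG00000013057 were −1.05, −1.39 and −0.81 in chronic and −0.59, −0.33 and −0.22 in transition sheep.

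By distance over all genes the sheep did not sort by state. The median absolute difference between a pair of sheep over all genes was 0.219 to 0.229 within the chronic state, 0.224 to 0.310 within the transition state and 0.195 to 0.305 between states, on the log2 scale of the sheep means. The closest pair of all was chronic D20 and transition D24, at 0.195, and the next was chronic D16 and transition D23, at 0.201. Transition D23 lay 0.255 from D24 and 0.310 from D27, farther than from any chronic sheep. A principal component analysis of all 18 columns did hold a direction along which the states were apart on each side, the second component, with 16.3% of the variance. Left libraries scored 21.7, 22.0 and 9.26 on it in chronic sheep D16, D19 and D20 and −7.42, 0.52 and −4.20 in transition sheep D23, D24 and D27. Right libraries scored 35.3, 35.8 and 26.04 in the chronic and 15.1, −2.85 and 5.19 in the transition sheep. Within a side every chronic library scored above every transition library, with D20 and right D23 nearest to the other state. Control libraries scored lower still, at −36.2 to −29.3 on the left and −27.3 to −8.61 on the right. The component thus also set controls apart from both states. The gene-wise SD had a median of 0.194 in chronic and 0.225 in transition sheep, with 0.187 in controls, and 58.1% of genes varied more in transition than in chronic sheep.

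**Figure D4:**
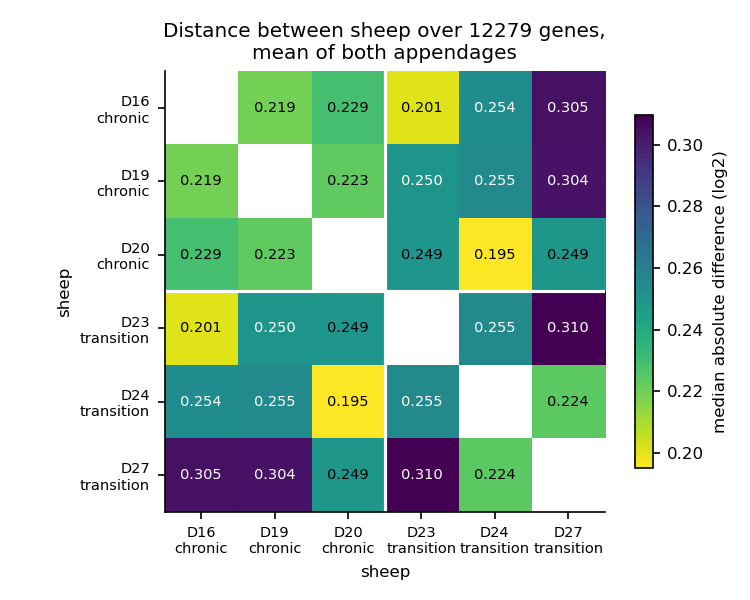
Median absolute difference in log2 level between pairs of sheep over 12279 genes, with chronic sheep above and left of transition sheep and lighter cells for closer pairs. Chronic D20 and transition D24 (0.195) and chronic D16 and transition D23 (0.201) were closer than any pair within a state.

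Sheep D23 bore on the number of calls. Without it limma called 90 genes on the right (0.733%; 54 higher and 36 lower in chronic sheep), 15 on the left (0.122%; 12 higher and 3 lower) and 8 in the sheep mean (0.0652%; 6 higher and 2 lower). The transition state then rests on 2 sheep, D24 and D27, with the spread pooled over the states. Named genes that then passed were ENSOARG00000009978 on the left at −1.75 (limma, adjusted p = 0.00805) and in the sheep mean at −1.70 (adjusted p = 0.0205). On the right they were ENSOARG00000009668 at 1.74 (adjusted p = 0.0207), ENSOARG00000006715 at −1.33 (adjusted p = 0.0288), ENSOARG00000013856 at 2.13 (adjusted p = 0.0438) and ENSOARG00000019145 at −1.36 (adjusted p = 0.0438). ENSOARG00000008077 was also called on the right, at an adjusted p of 0.0487 in limma. Leaving out any other chronic or transition sheep gave 1 to 3 calls. In the sheep means D23 lay nearer to each chronic sheep than to D24 or D27. On the left alone it did not, at a median absolute difference of 0.306 from chronic D19 and 0.287 from D24. The cause was not tested.

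Gene lists taken from control sheep, and so from libraries outside the contrast, showed where the profiles leaned. The 380 right-higher genes were those higher in right than in left tissue of control sheep. In cardiomyocytes their median chronic minus transition change was 0.49 in the sheep mean, 0.49 on the left and 0.50 on the right, against −0.012, 0.0079 and −0.027 for all genes. In the sheep mean 87.1% of them had a positive change, against 48.0% of all genes. At an unadjusted p under 0.05, 74 were higher and 3 lower in chronic sheep, where the background is 3.52% of all genes higher and 4.26% lower. None passed the adjusted threshold, with 0 of 380 called in limma.

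Per sheep, the mean level of the right-higher genes was 3.71, 3.63 and 3.14 log2 CPM in chronic sheep D16, D19 and D20 and 3.60, 2.91 and 2.68 log2 CPM in transition sheep D23, D24 and D27. The states overlapped, since D23 lay beside D16 and D19 while D20 lay nearer to D24. The means were 3.49 ± 0.31 in chronic and 3.06 ± 0.48 in transition sheep (SD, n = 3 each), with controls at 3.42 ± 0.20. The difference of 0.43 was 0.24 without D27 and 0.70 without D23. In whole tissue the same genes had a median change of 0.19, or 0.25 without left D27, against 0.0018 and 0.0037 for all genes, and a median of 0.19 between D15 and D30, against 0.013.

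The 180 left-higher genes, chosen in the same way, had a median change of −0.048 in the sheep mean, against −0.012 for all genes. At an unadjusted p under 0.05, 3 were higher and 20 lower, where the background is 3.52% of all genes higher and 4.26% lower. Of the list, 0 were called in limma. Their level was 4.86, 4.98 and 4.94 log2 CPM in chronic and 5.04, 4.98 and 4.96 log2 CPM in transition sheep, and the states overlapped. The difference of the mean levels, −0.067, was smaller than the change of the right-higher genes and was 0.0063 and −0.033 with lists of 250 and 1000 genes, which were ranked by size rather than by the test.

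The remaining lists ranked genes by whole tissue minus cardiomyocytes in control sheep. The 500 tissue-enriched genes, those with the largest excess in tissue, had a median change of 0.13 in cardiomyocytes, against −0.012 for all genes. Which cells express these genes was not tested. At an unadjusted p under 0.05, 34 were higher and 8 lower, where the background is 3.52% of all genes higher and 4.26% lower. Of the list, 0 were called in limma. Their level was 2.14, 1.99 and 1.96 log2 CPM in chronic and 2.03, 1.80 and 1.78 log2 CPM in transition sheep, so again D23 lay among the chronic sheep. In whole tissue their median change was −0.099. They share 74 genes with the right-higher list, 19.5% of the right-higher and 14.8% of the tissue-enriched list, and their part in its change was not tested.

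The 500 cardiomyocyte-enriched genes had a median change of 0.12, against −0.012 for all genes. At an unadjusted p under 0.05, 29 were higher and 28 lower, where the background is 3.52% of all genes higher and 4.26% lower. Of the list, 0 were called in limma. Their level was 4.18, 4.18 and 3.89 log2 CPM in chronic and 4.27, 3.86 and 3.68 log2 CPM in transition sheep, with the states overlapping and controls higher at 4.34 ± 0.07 (SD, n = 3). In whole tissue the median change of the 411 of them tested there was 0.30, and 0.44 between D15 and D30. In whole tissue a larger share of cardiomyocytes and more RNA of these genes per cardiomyocyte cannot be told apart.

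**Figure D5:**
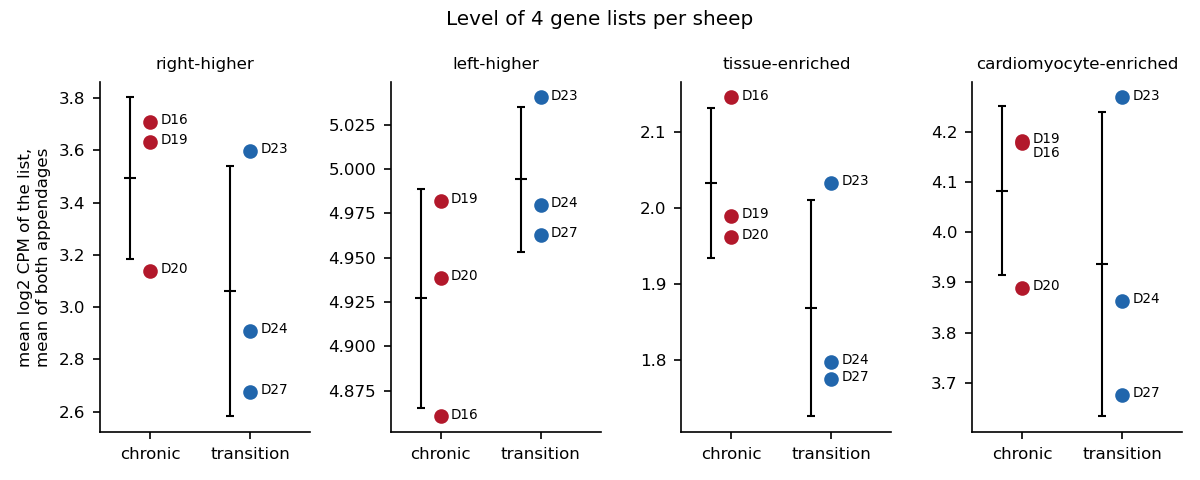
Mean log2 CPM of 4 gene lists per sheep, averaged over both appendages of isolated cardiomyocytes, with chronic sheep (red) left of transition sheep (blue) and black bars for the mean and SD of 3 sheep. Transition D23 lies among or above the chronic sheep in each list, and for right-higher genes at 3.60 against 2.91 and 2.68 in the other transition sheep.

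Genes that led the changes of both states against control in an earlier account of these data showed small further differences. ENSOARG00000017646, with a control mean of 2.56 ± 1.06 log2 CPM (SD, n = 3), averaged 5.53 ± 0.35 in chronic and 4.84 ± 0.52 in transition sheep, a change of 0.69 ± 0.46 (SE, limma, adjusted p = 0.718). ENSOARG00000017779 averaged 11.32 ± 0.33 in chronic and 10.68 ± 0.39 in transition sheep, a change of 0.64 ± 0.45 (SE, limma, adjusted p = 0.724). ENSOARG00000003826 changed by −0.31 ± 0.33 and ENSOARG00000007984 by −0.41 ± 0.28 (SE, limma, adjusted p = 0.822 and 0.718). All 4 differences continued the direction from control to transition, and none passed the adjusted threshold. In whole tissue ENSOARG00000007984 went the other way, at 1.75, or 1.73 without left D27 (limma, adjusted p = 0.369 and 0.435). Chronic sheep D15, which gave no cardiomyocytes, was far the highest there, at 4.77 log2 CPM on the left and 5.15 on the right. Chronic D16 was at 1.88 and 2.90, chronic D19 at 0.94 and 0.58, and the transition libraries at 0.28 to 1.24. ENSOARG00000017779 and ENSOARG00000003826 kept their sign in tissue, at 1.59 and −0.37, or 1.75 and −0.23 without left D27. The genes of highest level did not pass, with −0.10 ± 0.16 for ENSOARG00000019316 and 0.27 ± 0.22 for ENSOARG00000018229 (SE, limma, adjusted p = 0.892 and 0.768).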

How the data were processed

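RNA of isolated appendage cardiomyocytes was sequenced, and the authors deposited log2 values per gene with 1 column per sheep and appendage. Tools in the submitters' processing notes are bcl2fastq, cutadapt, limma and RSEM, with no version; aligner, genome build and strand setting: not given in the sources used here. All 238716 cardiomyocyte values came out as whole reads plus 0.5 over a scaled library size, within 0.05 reads, so reads were recovered. Genes that share reads with a copy or overlap another gene are uncertain.

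Changes were tested in limma (version 3.58.1, R 4.3.3; variance trend on) for the 12279 genes with a mean log2 CPM of at least 0, with Benjamini-Hochberg adjustment over these genes and a threshold of 0.05. Left, right and their difference came from a model of 6 group means with the sheep as a random effect (correlation 0.470); the sheep mean used 9 sheep means. Left and right are paired by sheep, and chronic and transition sheep are different animals. No count model was run; voom weights on the recovered reads were an alternative.

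Named genes were, per comparison and direction, the 2 of smallest p above the median level with states not overlapping, plus genes named in an earlier account and the 2 of highest level. Lists of symbols for pathways and cell types could not be used. The members, lists and rules were chosen with earlier results of these data known. The posterior left atrium was not analysed here.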

Additional observations from a re-analysis of the deposited data

How the results depend on the processing

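ENSOARG00000002796 was called in left, right and sheep-mean fits under every alternative that tested it, at changes of −8.48 to −3.68, the smallest with a pseudocount of 10 reads. A stricter filter removed it and left 0 calls in each of these comparisons. Left and right gave 2 calls each without a filter (with ENSOARG00000005838), with voom (with ENSOARG00000008077), with chronic and transition columns only (likewise) and with each appendage fitted alone (with ENSOARG00000009978 on the left and ENSOARG00000000332 on the right). Sample quality weights gave 2 calls on the left, 11 on the right (4 higher and 7 lower) and 2 in the sheep mean, and the sheep mean gave 2 with chronic and transition columns only. Averaging both contrasts with the sheep as replicate block gave 3 calls in place of 1; without the block the counts were 1, 1 and 0 for left, right and their difference. These further genes were picked after their values were seen. Leaving out a sheep gave 1 to 15 calls on the left, 1 to 90 on the right and 1 to 8 in the sheep mean, with every high value from D23. The left minus right difference gave 0 calls under every alternative run. Of 378 values of named genes under alternatives, 353 kept their direction and side of the threshold, 21 passed it, 4 lost it and 0 reversed; the 4 losses, and the fall of the tissue count to 0, came without left D27, an alternative added after the data were seen. The level difference of left-higher genes was 0.0063 with lists of 250 genes and −0.033 with lists of 1000, both ranked by size, against −0.067. With 3 sheep a state the median standard error of a sheep-mean change was 0.19, and the part of depth in the number of calls was not tested.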
